A study of Homo sapiens with 39 samples.

Results

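The genes described here are 29 human genes of the peroxisome, picked by name out of the 23710 gene symbols in each of 5 comparison tables. They comprise 12 peroxins, which build the organelle and import its proteins, and 17 peroxisomal enzymes and membrane proteins, and all 29 were found in every table. RNA was sequenced in 39 libraries of RPE1, an hTERT-immortalised line from retinal pigment epithelium, and of CHP-134, a neuroblastoma line. The tested dose was that of TRIM37, a RING-type ubiquitin ligase. A TRIM37 knockout of RPE1 (9 libraries) was set against RPE1 wild type (9 libraries). CHP-134 TRIM37 mutant clone 2 and clone 1 (3 libraries each), which the labels call partial knockouts, were each set against the same CHP-134 wild type (3 libraries). RPE1 TetOn-TRIM37 clones 5 and 4, which carry TRIM37 under a doxycycline-inducible promoter, were given doxycycline at 1 µM over 24 h (3 libraries each) and set against the same clones left untreated (3 libraries each). For the knockout no clone is named in the labels, and each CHP-134 mutant is 1 clone, so for these lines clone and TRIM37 loss cannot be told apart. Each TetOn clone was compared with itself untreated. No RPE1 cells without the inducible TRIM37 were given doxycycline, so the drug and the induction of TRIM37 cannot be told apart. The labels number the 9 wild type RPE1 libraries as 3 by 3 and those of the knockout from 1 to 9, and no source used here says what the wild type numbering stands for.

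Peroxisomes oxidise very long and branched fatty acids, make the first intermediates of ether lipids and break down hydrogen peroxide. Their enzymes are made in the cytosol and brought in by the receptors PEX5 and PEX7, which dock at the membrane and release cargo. PEX5 is ubiquitinated before it returns to the cytosol. TRIM37 has a reported role in the ubiquitination of PEX5 protein, and mutations in TRIM37 cause mulibrey nanism, a growth disorder. That role concerns protein, whereas all values here are of transcripts.

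The authors' deposited tables give for each gene a mean count over the libraries of a comparison, a log2 fold change, the standard error (SE) of that change and an adjusted p-value, q. They hold no value per library, so no level is given by sample or by group and the depth per library is unknown. A gene was called where q was under 0.05. In the authors' deposited tables TRIM37 itself had a log2 fold change of -1.95 (SE 0.0461) in the knockout, -1.75 (SE 0.0416) in clone 2, -1.66 (SE 0.0337) in clone 1, 2.64 (SE 0.0419) with doxycycline in TetOn clone 5 and 3.19 (SE 0.0441) in clone 4. Which group is the numerator is not named in the headers, and directions were set by the sign of TRIM37, so this gene is no check of the labels. No source used here says that replicates were separate cultures, so the q values may measure technical spread only. Of 10 adrenergic neuroblastoma markers, 8 exceeded a mean count of 10 in the CHP-134 tables, without TH and DBH, against 2 in the knockout table and 1 in each TetOn table. Of 9 retinal pigment epithelium markers, 4 did so in the RPE1 tables and 3 in the CHP-134 tables, and RPE65, BEST1, RLBP1, TYRP1 and TYR did not in any RPE1 table.

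All 29 genes were expressed above the authors' limit of a mean count of 10 in all 5 tables. On the scale of mean count per kilobase of exon, PEX19, the cytosolic chaperone of new peroxisomal membrane proteins, and GNPAT, which catalyses the first step of ether lipid synthesis, held the first 2 places among the 29 in every table, in either order. PEX19 stood at 670 and GNPAT at 607 per kilobase in the knockout table, as computed from the authors' deposited table. FAR1, CAT, PXMP2 and AGPS filled the next 4 places. AMACR, a racemase of branched-chain fatty acids, came last in every table, at 7.54 per kilobase in the knockout table and 3.74 and 3.33 in those of clone 2 and clone 1. In GENCODE v29, 64.8% of its exon bases lie within other genes on the same strand, among them the readthrough gene C1QTNF3-AMACR, so its counts are uncertain. PEX11A, a protein of peroxisome elongation and division, was among the 3 lowest genes in each table, at 38.8 per kilobase in the knockout table.

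**Figure D1:**
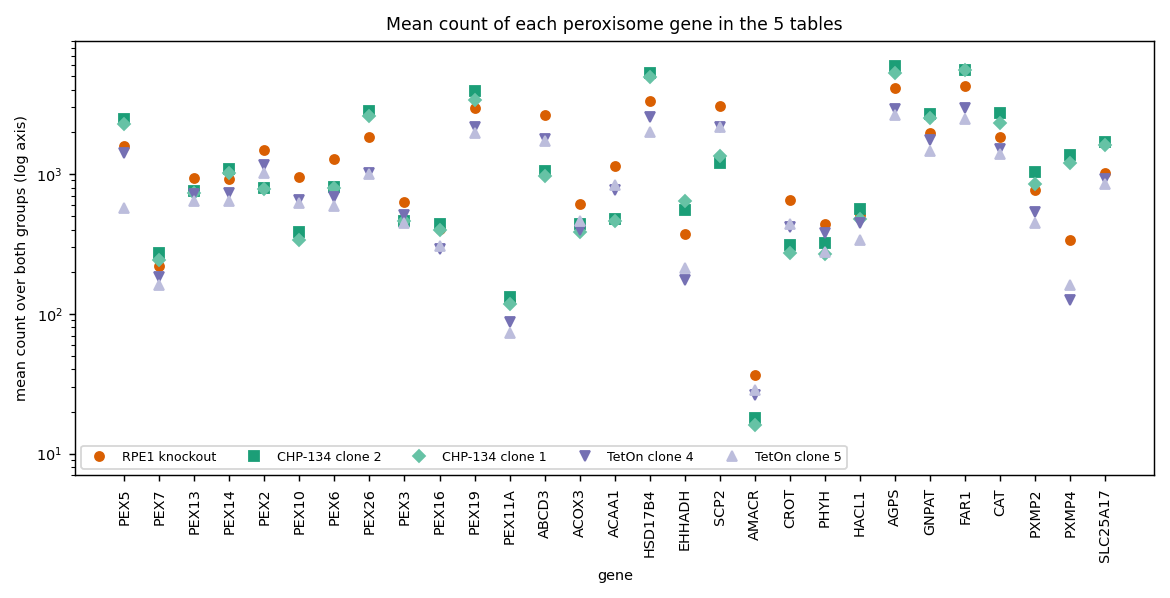
Mean count of each of the 29 peroxisome genes (log axis) in each of the 5 tables, as the authors' deposited tables give it over both groups of a comparison; 1 point per gene and table, with no spread since no value per library is given. AMACR lies lowest in every table, PEX5 stands apart between the TetOn clones (1420 in clone 4 and 575 in clone 5), and PXMP4 stands higher in the CHP-134 than in the RPE1 tables.

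The upstream sequences of 4 genes are shown because the values below turn on them: PEX5 is the import receptor linked to TRIM37, PXMP4 had the largest called rise and SCP2 the largest called fall of all members, and GNPAT is the only member called in 3 comparisons. Each is the 250 bases before the gene's start in RefSeq on GRCh38.p14, written 5′ to 3′ on the gene's strand. They lie at chr12:7188403-7188652 (plus strand) for PEX5, chr20:33720311-33720560 (minus strand) for PXMP4, chr1:52927026-52927275 (plus strand) for SCP2 and chr1:231240962-231241211 (plus strand) for GNPAT. Capitals mark the nuclear receptor core site AGGTCA, the E-box CACGTG, the NRF1-type palindrome (GCGC, any base, TGCGC), the CCAAT box and the GC box GGGCGG on either strand.
PEX5: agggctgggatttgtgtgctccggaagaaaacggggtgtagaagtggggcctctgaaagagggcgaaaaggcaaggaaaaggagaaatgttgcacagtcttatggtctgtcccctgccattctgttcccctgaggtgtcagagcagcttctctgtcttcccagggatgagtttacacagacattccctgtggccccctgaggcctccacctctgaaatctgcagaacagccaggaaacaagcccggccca
PXMP4: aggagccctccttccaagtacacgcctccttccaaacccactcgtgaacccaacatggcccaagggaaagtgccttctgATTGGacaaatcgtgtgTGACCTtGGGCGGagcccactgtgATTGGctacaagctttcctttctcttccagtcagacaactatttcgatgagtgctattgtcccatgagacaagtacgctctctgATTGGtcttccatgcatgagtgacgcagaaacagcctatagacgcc
SCP2: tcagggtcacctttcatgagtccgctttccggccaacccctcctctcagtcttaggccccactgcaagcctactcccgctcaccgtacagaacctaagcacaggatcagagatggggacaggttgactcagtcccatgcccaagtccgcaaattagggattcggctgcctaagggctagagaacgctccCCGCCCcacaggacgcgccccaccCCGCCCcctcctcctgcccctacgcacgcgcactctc
GNPAT: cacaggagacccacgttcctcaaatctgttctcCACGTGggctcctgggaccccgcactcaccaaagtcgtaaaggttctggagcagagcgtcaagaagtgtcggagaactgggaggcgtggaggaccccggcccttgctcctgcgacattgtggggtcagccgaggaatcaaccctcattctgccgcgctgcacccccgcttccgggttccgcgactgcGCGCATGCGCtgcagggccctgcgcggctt
The PEX5 window held none of these letters. That of PXMP4 held 3 CCAAT boxes, 1 GC box and 1 nuclear receptor core site, that of SCP2 held 2 GC boxes, and that of GNPAT held 1 E-box and 1 NRF1-type palindrome. Upstream windows were matched for 25 of the 29 members. The GC box was found in 18 of 25 (72%), against 42.3% of 27305 upstream windows of the same length, and the CCAAT box in 12 of 25 (48%), against 33%. The nuclear receptor core site was found in 2 of 25 (8%) against 12.1%, the E-box in 2 (8%) against 6.49%, the NRF1-type palindrome in 2 (8%) against 5.53%, and TGACGTCA, the cyclic AMP response element, in 1 (4%) against 1.77%. The direct repeat of that core site with 1 base between the copies, which contains the single site and is the element bound by peroxisome proliferator-activated receptors, was found in 0 of 25, against 0.0183%. The 27305 windows were not limited to expressed genes, whereas all members were expressed, so the sets are unlike and the shares show no trait of peroxisome genes. These matches describe letters in a window and show no binding.

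Loss of TRIM37 in RPE1 was compared with wild type to ask which peroxisome transcripts differ. The membrane protein gene PXMP4 and the import receptor gene PEX5 rose most, and the beta-oxidation gene EHHADH and the second receptor gene PEX7 fell most, with changes of 0.37 to 0.51 on the log2 scale in either direction in the authors' deposited table. In CHP-134 clone 2 the beta-oxidation genes SCP2 and EHHADH fell most, by 0.72 and 0.68, and in clone 1 the largest called change was the fall of PHYH, by 0.31, in the authors' deposited tables. In the knockout 14 of 29 members were called, 5 up and 9 down (48.3%), against 53.6% of all 13002 usable genes, 26.6% up and 26.9% down. The members' median log2 fold change was -0.03, against -0.0022 over all usable genes, and their median absolute change 0.138, against 0.156. In CHP-134 clone 2, 13 of 28 members were called, 6 up and 7 down (46.4%), against 46.2% of 12771 usable genes, 22% up and 24.2% down. Their median was 0.03, against -0.01 over all. PEX10 was set aside as an outlier in the authors' deposited table for clone 2. In CHP-134 clone 1, 6 of 29 members were called, 1 up and 5 down (20.7%), against 18.7% of 12791 usable genes, 9.6% up and 9.07% down. Their median was -0.07, against -0.01 over all. The share of members called was thus near that of all genes in each of these comparisons. The libraries are bulk, so a lower level in some cells and a lower level in every cell cannot be told apart.

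With doxycycline given and TRIM37 induced, no member was called by the authors' test, which is that of DESeq2 per the submitters' processing notes. In TetOn clone 5, 0 of 29 passed, against 2.97% of 12195 usable genes, and the smallest q was 0.373, for ACAA1. In TetOn clone 4, 0 of 29 passed, against 1.95% of 12153 usable genes, and the smallest q was 0.10, for the fatty acyl-CoA transporter ABCD3. At an unadjusted p under 0.05, from a normal approximation to the deposited log2 fold change and SE, 1 member passed in clone 5 and 4 passed in clone 4, where 10.7% and 10.1% of usable genes did so. The members' changes lay between -0.13 and 0.15 in clone 5 and between -0.13 and 0.29 in clone 4 in the authors' deposited tables. Median changes were -0.0023 in clone 5 and -0.01 in clone 4, against 0.0020 and 0.0016 over all usable genes.

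**Figure D2:**
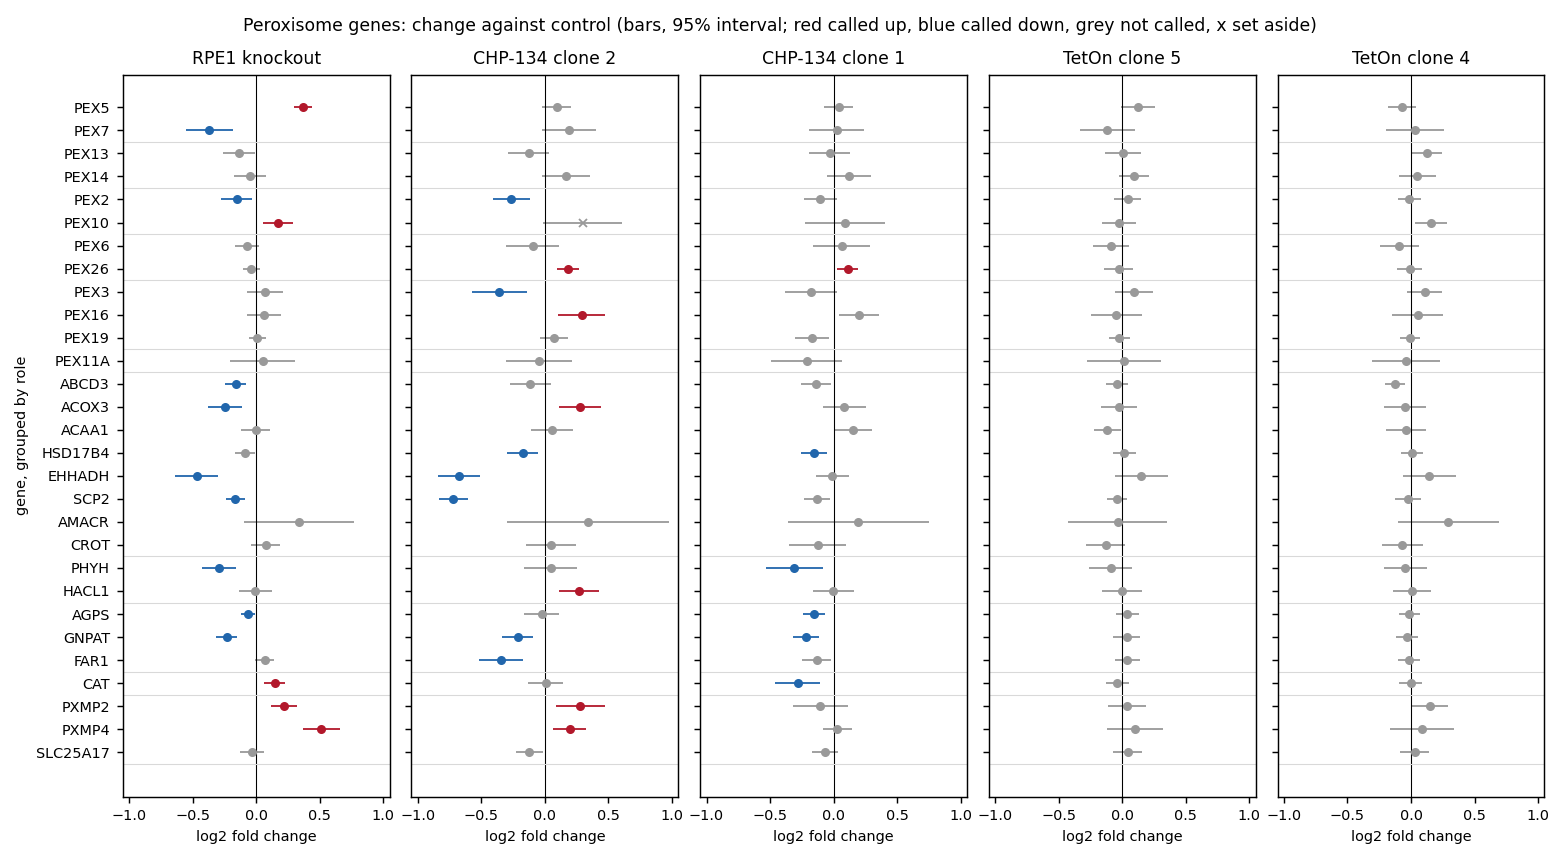
Log2 fold change of each of the 29 genes, grouped by role, in the 5 comparisons; points are the authors' deposited values, bars their 95% interval, red and blue are genes called up and down, grey genes not called, and the cross is PEX10, set aside by the authors in clone 2. The 14 called genes of the knockout and the 13 of clone 2 lie on both sides of 0, 5 of the 6 of clone 1 lie below it, and no gene is called in either TetOn clone.

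Among the 28 members usable in all 5 tables, 9 were called in no comparison, 7 in 1, 11 in 2 and 1 in 3. Of the 10284 genes usable in all 5, 24.3% were called in none, 40.1% in 1, 27.1% in 2 and 7.85% in 3. The 2 CHP-134 clones share their wild type libraries. Those called in none were PEX6, PEX11A, PEX13, PEX14, PEX19, ACAA1, AMACR, SLC25A17 and CROT. Both genes for docking at the membrane, PEX13 and PEX14, are thus among them.

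PEX5, the receptor for enzymes with the common C-terminal targeting signal, was called in the knockout alone. Its log2 fold change there was 0.37 (SE 0.0369, q = 2.14e-22, mean count 1590) in the authors' deposited table. It was 0.09 (SE 0.0593, q = 0.192, mean count 2490) in clone 2 and 0.04 (SE 0.058, q = 0.678, mean count 2300) in clone 1 in the authors' deposited tables. With doxycycline it was 0.12 (SE 0.0683, q = 0.545, mean count 575) in TetOn clone 5 and -0.07 (SE 0.0576, q = 0.792, mean count 1420) in clone 4 in the authors' deposited tables. The 95% intervals in the TetOn clones ran from -0.0099 to 0.26 in clone 5 and from -0.18 to 0.04 in clone 4.

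The rise of PEX5 in the knockout was smaller than the median change of the genes around it. PEX5 lies on chromosome 12, whose usable genes had a median log2 fold change of 0.51 in the knockout, and the 20 nearest usable genes on each side of PEX5 had a median of 0.46. With the chromosome median subtracted, PEX5 came to -0.14 (adjusted p = 0.000508, normal test of the shifted value with Benjamini-Hochberg adjustment). With the median of its neighbours subtracted it came to -0.09 (adjusted p = 0.0301). These tests use the SE of PEX5 alone and take the median as exact. They leave out the spread among the other genes, so whether PEX5 stands apart from them was not tested. PEX5 was called up against wild type, and its value lay under the medians of its chromosome and its neighbours. The same held for PXMP2, a pore-forming protein of the peroxisomal membrane and the other member on chromosome 12, whose change in the knockout was 0.22 (SE 0.0511, q = 5.83e-05, mean count 775) in the authors' deposited table. Its neighbours had a median of 0.50, and PXMP2 came to -0.29 (adjusted p = 1.14e-07) once this was subtracted. In the CHP-134 and TetOn comparisons the neighbours of PEX5 had medians between 0.0039 and 0.05. Gene order was that of RefSeq, and the copy number of chromosome 12 in these cells was not tested.

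**Figure D3:**
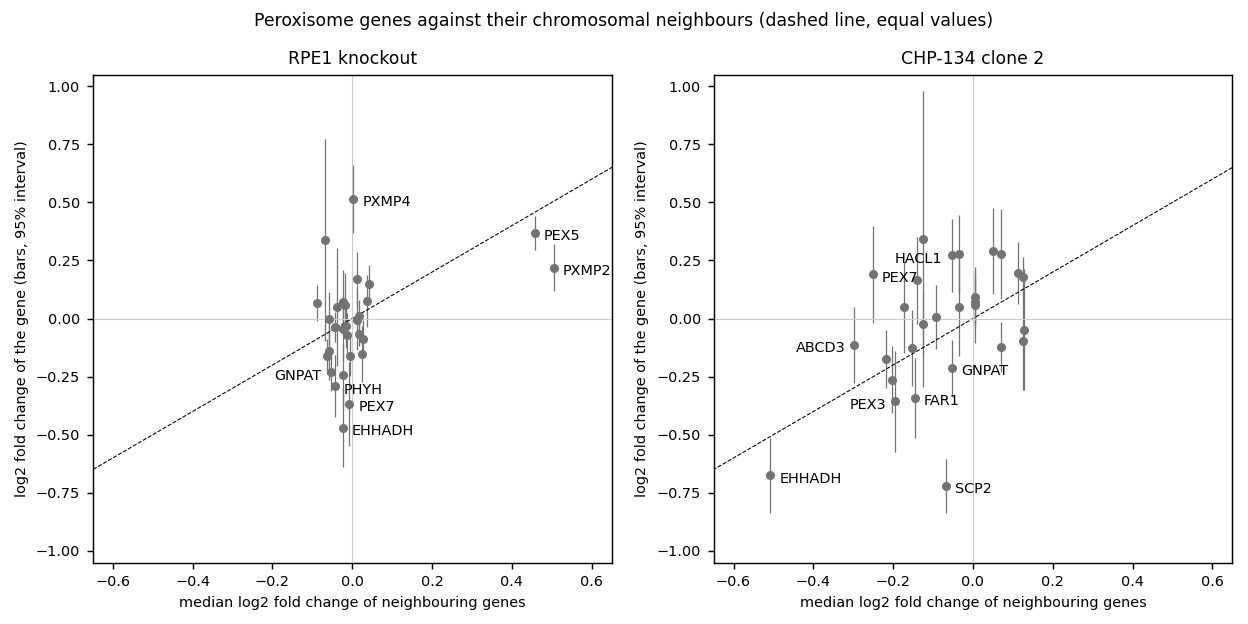
Log2 fold change of each peroxisome gene (vertical axis, authors' deposited value with its 95% interval) against the median log2 fold change of up to 20 usable genes on each side of it (horizontal axis), in the RPE1 knockout and CHP-134 clone 2; the dashed line marks equal values. PEX5 and PXMP2 lie far right in the knockout (0.46 and 0.50), below the line, EHHADH lies far left in clone 2 (-0.51), and PXMP4 in the knockout and SCP2 in clone 2 have neighbours near 0.

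PEX7, the receptor for the few enzymes with an N-terminal targeting signal, fell in the knockout, by 0.37 (SE 0.0928, q = 0.000232, mean count 221) in the authors' deposited table. Its neighbours on chromosome 6 had a median of -0.0079 there. In clone 2 it stood at 0.19 (SE 0.107, q = 0.133) and in clone 1 at 0.02 (SE 0.11, q = 0.914) in the authors' deposited tables, and neither passed. Relative to its neighbours PEX7 came to -0.36 in the knockout (adjusted p = 0.0003), on the same side of 0 as PEX5 on that scale.

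PEX2 and PEX10 encode RING ubiquitin ligases that modify PEX5 at the membrane. PEX2 fell in the knockout, by 0.15 (SE 0.0619, q = 0.0269), and in clone 2, by 0.26 (SE 0.0729, q = 0.00122), in the authors' deposited tables. Relative to its neighbours it came to -0.06 in clone 2 and did not pass (adjusted p = 0.542). PEX10 rose in the knockout by 0.17 (SE 0.0592, q = 0.00818) in the authors' deposited table. RER1 overlaps 39.1% of the exon bases of PEX10 on the other strand, and the strand setting of the counts is not given in the sources used here. Of the receptor recycling genes, PEX26, a membrane protein needed for the export of PEX5, rose in clone 2 by 0.18 (SE 0.044, q = 0.00021, mean count 2850) and in clone 1 by 0.11 (SE 0.0427, q = 0.0499, mean count 2610) in the authors' deposited tables. PEX26 is the only member called up in both. The share of all genes called up in both was not computed, and the clones share their wild type libraries. Relative to its neighbours it came to 0.05 (adjusted p = 0.343) in clone 2 and 0.10 (adjusted p = 0.101) in clone 1 and passed in neither. It was at -0.04 (SE 0.0332, q = 0.353) in the knockout in the authors' deposited table.

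The genes for insertion of membrane proteins were called in clone 2 alone, and in opposite directions. PEX3, the membrane receptor for PEX19, fell by 0.36 (SE 0.111, q = 0.00438, mean count 463), and PEX16, which recruits PEX3, rose by 0.29 (SE 0.0942, q = 0.00627, mean count 437) in the authors' deposited table. In clone 1 PEX3 was at -0.18 (SE 0.104) and PEX16 at 0.20 (SE 0.0799) in the authors' deposited table. Neither was called there, and each lay on the same side of 0 as in clone 2. The difference between clone 2 and clone 1 passed for neither (normal test, adjusted p = 0.459 for PEX3 and 0.672 for PEX16). Without the median of its neighbours, -0.20, PEX3 came to -0.16 in clone 2 and no longer passed (adjusted p = 0.253). PEX19 was not called in any comparison, and its values were 0.01 (q = 0.817) in the knockout, 0.07 (q = 0.305) in clone 2 and -0.17 (q = 0.0556) in clone 1 in the authors' deposited tables. Across the 12 peroxins, 2 rose and 2 fell in the knockout, 2 rose and 2 fell of 11 in clone 2, and 1 rose in clone 1. Of all usable genes, 26.6% rose and 26.9% fell in the knockout, 22% and 24.2% in clone 2, and 9.6% and 9.07% in clone 1.

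Among the 8 genes of fatty acid beta-oxidation, 4 fell and 0 rose in the knockout, 3 fell and 1 rose in clone 2, and 1 fell in clone 1, where 26.9%, 24.2% and 9.07% of all usable genes fell. SCP2, which encodes sterol carrier protein 2 and the thiolase SCPx, had the largest change of any member. It fell in clone 2 by 0.72 (SE 0.0591, q = 2.88e-32, mean count 1210) and in the knockout by 0.16 (SE 0.0381, q = 6.46e-05, mean count 3060) in the authors' deposited tables. Its neighbours on chromosome 1 had medians of -0.07 in clone 2 and -0.06 in the knockout, and relative to them SCP2 came to -0.65 (adjusted p = 1.69e-26) and -0.10 (adjusted p = 0.0184). The authors' deposited table for clone 1 gave SCP2 at -0.13 (SE 0.0513, q = 0.0554). Processed pseudogenes overlap 20.7% of its exon bases in GENCODE v29.

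EHHADH, the L-bifunctional enzyme of the peroxisomal pathway, fell in clone 2 by 0.68 (SE 0.083, q = 1.1e-14, mean count 557) and in the knockout by 0.47 (SE 0.0857, q = 1.86e-07, mean count 374) in the authors' deposited tables. In clone 1 it was at -0.0097 (SE 0.0659, q = 0.942, mean count 643) in the authors' deposited table. The falls in clone 2 and the knockout differed in their surroundings. The neighbours of EHHADH on chromosome 3 had a median of -0.51 in clone 2, and relative to them EHHADH came to -0.17, which did not pass (adjusted p = 0.0989). In the knockout their median was -0.02, and EHHADH came to -0.44 (adjusted p = 9.43e-07).

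HSD17B4, the D-bifunctional enzyme of the same steps, fell in both CHP-134 clones, by 0.17 (SE 0.0629, q = 0.0153, mean count 5260) in clone 2 and by 0.15 (SE 0.0528, q = 0.0241, mean count 4970) in clone 1 in the authors' deposited tables. Relative to its neighbours, whose median was -0.22 in clone 2, it came to 0.04 there (adjusted p = 0.611), and to -0.09 in clone 1 (adjusted p = 0.227), and passed in neither. ACOX3, an oxidase of branched-chain acyl-CoA, fell in the knockout by 0.25 (SE 0.0693, q = 0.00107, mean count 615) and rose in clone 2 by 0.28 (SE 0.0861, q = 0.00416, mean count 441) in the authors' deposited tables. ABCD3, which carries fatty acyl-CoA into the organelle, fell in the knockout by 0.16 (SE 0.0438, q = 0.000586) in the authors' deposited table. The thiolase ACAA1, the racemase AMACR and the carnitine octanoyltransferase CROT were called in no comparison. AMACR had the widest errors, with an SE of 0.221 in the knockout and 0.325 in clone 2 in the authors' deposited tables.

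Alpha-oxidation shortens branched fatty acids such as phytanic acid by 1 carbon. PHYH, the phytanoyl-CoA hydroxylase that begins it, fell in the knockout by 0.29 (SE 0.0682, q = 6.06e-05, mean count 437) and in clone 1 by 0.31 (SE 0.115, q = 0.042, mean count 266) in the authors' deposited tables. Against the genes around it PHYH came to -0.23 in clone 1 and did not pass (adjusted p = 0.155). The authors' deposited table for clone 2 gave PHYH at 0.05 (SE 0.106, q = 0.74). HACL1, the lyase that follows PHYH in the pathway, rose in clone 2 by 0.27 (SE 0.0805, q = 0.0026, mean count 559) and was at -0.0055 (q = 0.951) in the knockout and -0.0013 (q = 0.995) in clone 1 in the authors' deposited tables.

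The 3 genes that start ether lipid synthesis had 2 of 3 called down and 0 called up in the knockout, in clone 2 and in clone 1, where 26.9%, 24.2% and 9.07% of all usable genes were called down. GNPAT, the acyltransferase of the first step, is the only member called in all 3. Of 11054 genes usable in all 3, 6.9% were called in all 3, and 1.53% were called down in each. Its log2 fold change was -0.23 (SE 0.0409, q = 6.75e-08, mean count 1980) in the knockout, -0.21 (SE 0.0631, q = 0.0025, mean count 2700) in clone 2 and -0.22 (SE 0.0514, q = 0.000483, mean count 2540) in clone 1 in the authors' deposited tables. Relative to its neighbours on chromosome 1 GNPAT came to -0.18 (adjusted p = 4.97e-05), -0.16 (adjusted p = 0.0301) and -0.17 (adjusted p = 0.0105) in the knockout, clone 2 and clone 1. On doxycycline it was at 0.04 (SE 0.0539, q = 0.926) in TetOn clone 5 and -0.03 (SE 0.0432, q = 0.914) in clone 4 in the authors' deposited tables. With all statistics divided by their own central spread, GNPAT passed in none of the 3, with adjusted p from 0.405 to 0.962.

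AGPS, which exchanges the acyl chain for an alkyl chain in the second step, fell in the knockout by 0.06 (SE 0.0266, q = 0.0297) and in clone 1 by 0.15 (SE 0.0435, q = 0.00484, mean count 5300), and was at -0.03 (SE 0.0701, q = 0.795) in clone 2 in the authors' deposited tables. With the chromosome median subtracted AGPS came to -0.04 in the knockout and did not pass (adjusted p = 0.184), and with the median of its neighbours subtracted it came to -0.08 and passed (adjusted p = 0.00602). FAR1, which makes the fatty alcohol for that chain, fell in clone 2 by 0.34 (SE 0.0875, q = 0.000397, mean count 5540) in the authors' deposited table. It was at 0.07 (SE 0.0394, q = 0.145) in the knockout and at -0.13 (SE 0.0586, q = 0.0933) in clone 1 in the authors' deposited tables. Once its neighbours were subtracted FAR1 came to -0.20 in clone 2 and did not pass (adjusted p = 0.0624). The pair of ether lipid genes called down was thus GNPAT with AGPS in the knockout and clone 1, and GNPAT with FAR1 in clone 2.

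CAT encodes catalase, which breaks down hydrogen peroxide. It rose in the knockout by 0.15 (SE 0.0422, q = 0.00136, mean count 1850), fell in clone 1 by 0.28 (SE 0.0898, q = 0.013, mean count 2330) and was at 0.0084 (SE 0.0701, q = 0.934) in clone 2 in the authors' deposited tables. With the median of its neighbours subtracted CAT came to -0.18 in clone 1 and did not pass (adjusted p = 0.15). PXMP4, a peroxisomal membrane protein, had the largest rise of any called member. It rose in the knockout by 0.51 (SE 0.0753, q = 5e-11, mean count 338) and in clone 2 by 0.20 (SE 0.067, q = 0.00992, mean count 1370) in the authors' deposited tables. Its neighbours on chromosome 20 had medians of 0.0023 in the knockout and 0.11 in clone 2, and relative to them PXMP4 came to 0.51 (adjusted p = 7.14e-11) and 0.08 (adjusted p = 0.35). PXMP2 rose in clone 2 by 0.28 (SE 0.0986, q = 0.0131, mean count 1030) and was at -0.11 (SE 0.111, q = 0.568) in clone 1 in the authors' deposited tables. Relative to its neighbours it came to 0.21 in clone 2 and did not pass (adjusted p = 0.0817). SLC25A17, a carrier of cofactors across the membrane, was called in no comparison.

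The difference between altered lines was tested as the difference of the deposited log2 fold changes divided by its SE, the square root of the sum of both squared SEs, with a normal p and Benjamini-Hochberg adjustment over all genes usable in both tables. For CHP-134 clone 2 minus clone 1, 4 of 28 members passed (20.5% of 12579 genes did). SCP2 differed by -0.59 (adjusted p = 2.04e-12) and EHHADH by -0.67 (adjusted p = 9.55e-09), lower in clone 2. With the median of the neighbours subtracted in each clone, SCP2 still differed, by -0.57 (adjusted p = 1.69e-11), and EHHADH came to -0.13 and did not pass (adjusted p = 0.486). PXMP2 differed by 0.38 (adjusted p = 0.0487) and PEX19 by 0.24 (adjusted p = 0.0315), higher in clone 2, and on the neighbour scale they came to 0.35 (adjusted p = 0.0919) and 0.21 (adjusted p = 0.0848) and did not pass. CAT missed the threshold at 0.29 (95% interval 0.07 to 0.51, adjusted p = 0.051). Since both clones share their wild type libraries, the SE used is too large for this difference, and the number that passed may be too low. For TetOn clone 5 minus clone 4, 0 of 29 passed, where 0.221% of 11778 genes did, and the smallest adjusted p of a member was 0.78. Both differences between the knockout and a CHP-134 clone were added after the data were seen, and they compare cell lines as well as mutations. Against clone 2, 10 of 28 members passed (46.5% of 11160 genes did), 5 higher and 5 lower in the knockout. Against clone 1, 10 of 29 passed (34.1% of 11194 genes did), 6 higher and 4 lower. PEX5 was among them in both, by 0.28 (adjusted p = 0.000333) against clone 2 and by 0.33 (adjusted p = 1.74e-05) against clone 1. With the neighbours subtracted in each line the sign of PEX5 turned, to -0.18 (adjusted p = 0.0279) against clone 2 and -0.11 (adjusted p = 0.233) against clone 1.

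Between the TetOn clones the levels of the members, as distinct from their response, stood apart for PEX5 alone at a ratio of 2-fold or more. The mean count of PEX5 was 1420 in the table of clone 4 and 575 in that of clone 5, each over treated and untreated libraries, in the authors' deposited tables. Relative to the median ratio of all genes, 1.11, this was 2.23-fold, a ratio reached by 1.2% of 11778 genes. The neighbours of PEX5 had a median ratio of 2.01 on the same relative scale, whereas all of chromosome 12 had 1.07 and the neighbours of PXMP2, also on chromosome 12, 1.01. The other 28 members lay between 0.706-fold (PXMP4, mean counts 126 and 161) and 1.24-fold (PHYH, 378 and 275). The tables were normalised separately and give no spread, so these ratios have no test.

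**Figure D4:**
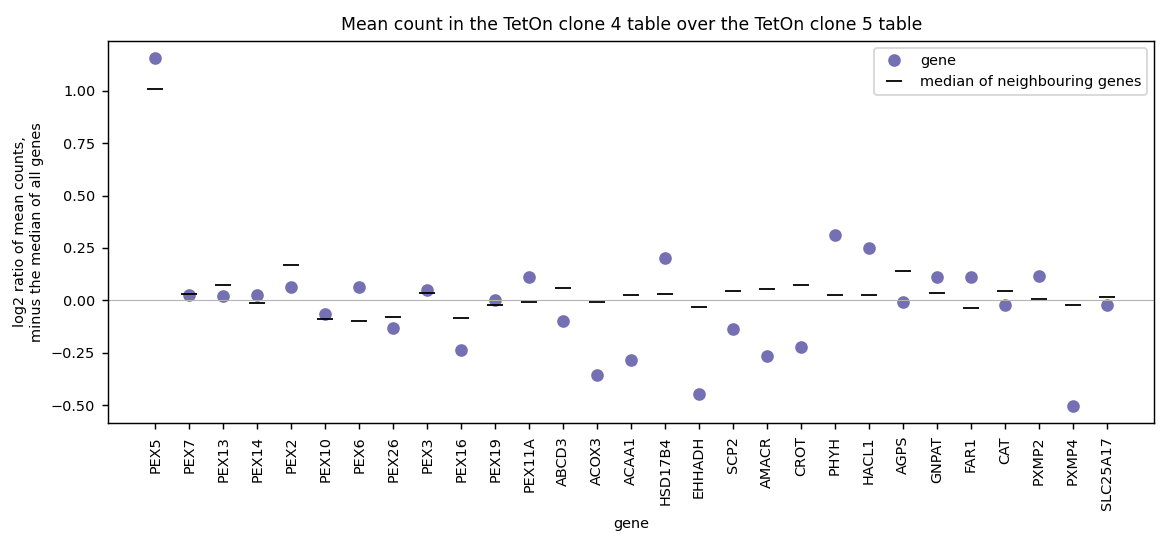
Log2 ratio of the mean count in the TetOn clone 4 table over that in the TetOn clone 5 table, minus the median of all genes, for each peroxisome gene (points) and for the median of its neighbouring genes (dashes); no error is shown since no value per library is given. PEX5 stands at 1.16 with its neighbours at 1.01, and the other 28 genes lie between -0.50 and 0.31.

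Levels also differed between the RPE1 knockout and CHP-134 clone 1 tables, with the same limit. Each mean count is over wild type and TRIM37-altered libraries, so these are not levels of the unaltered lines. Relative to the median ratio of all genes, 1.10, the mean count in the RPE1 knockout table over that in the CHP-134 clone 1 table was at least 2-fold for PEX10 (2.58), ABCD3 (2.49), ACAA1 (2.27), CROT (2.17), AMACR (2.07) and SCP2 (2.07). PXMP4 was the only member at or under 0.5-fold, at 0.255 (mean counts 338 and 1210), and EHHADH followed at 0.53 (374 and 643). The median of the 29 ratios was 0.924. These 6 members are 20.7% of the 29, where 22.6% of 11194 genes were at 2-fold or more and 16.8% at or under 0.5-fold. On the same relative scale the neighbours' median ratios were 1.88 for PEX10, 2.15 for ABCD3 and 1.73 for ACAA1, but 0.804 for CROT, 0.946 for AMACR and 0.885 for SCP2. For EHHADH the neighbours stood at 0.559 and for PXMP4 at 0.833.

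Of 56 other peroxisome genes listed for comparison, 9 rose and 21 fell of 46 usable in the knockout (65.2% called), 9 rose and 13 fell of 44 in clone 2 (50%), and 6 rose and 5 fell of 44 in clone 1 (25%). Over all usable genes 53.6%, 46.2% and 18.7% were called. In TetOn clone 5, 0 of 43 were called, against 2.97% of all usable genes. In TetOn clone 4, 1 of 43 was called, against 1.95% of all usable genes. That was the membrane tether gene VAPA, up by 0.12 (SE 0.034, q = 0.0355) in the authors' deposited table.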

How the data were processed

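The labels put 39 RNA sequencing libraries in 9 groups. STAR and DESeq2 are the tools in the submitters' processing notes, with no version. Which genome build, annotation and strand setting the authors used is not given in the sources used here. Reads of overlapping or antisense genes thus cannot be told apart.

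Per the file headers, each of the 5 tables the authors deposited holds 23710 gene symbols with Status, mean count, log2 fold change, standard error and q value (an adjusted p-value). How the authors scaled the mean count is not stated. No gene of Status Low exceeded a mean count of 10, and genes of Status Outlier carry a q of 1. Genes of neither kind are called usable. Values per library were not analysed here, so the plan to fit counts could not be followed, and the authors' q under 0.05 is the test. The precision is that of the authors' standard errors, whose median over the members ran from 0.0587 to 0.083.

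Differences between comparisons, and values after a median was subtracted, were tested with a two-sided normal p-value and Benjamini-Hochberg adjustment over all usable genes in Python 3.11.15 (pandas 2.3.3, numpy 2.4.6, scipy 1.17.1), checked on simulated data. Chromosomes and gene order came from RefSeq on GRCh38.p14 by symbol, matched for 22697 symbols and all 29 members. Neighbours are up to 20 usable genes on each side. A subtracted median was taken as exact, and the spread of the genes behind it was left out of the test. Near chromosome ends PXMP2 had 30 in all, and PEX26 had 26 in the RPE1 tables and 30 in the CHP-134 tables. Exon lengths and overlaps came from GENCODE v29. Figures were drawn with matplotlib 3.10.9.

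The members and gene lists were chosen with earlier results of these data known. Full values are given for PEX5 in every comparison, for the 8 largest changes among called members of each comparison and for members called with the same sign in both clones of a pair. From the 56 other peroxisome genes the 5 with the smallest q per comparison are named, except 1 that is not reported here, and other values were chosen after they were seen. A search of the members' proteins for targeting signals was planned and not run. Alternatives were other thresholds, a minimum change of 1.5-fold, a mean count of at least 100, genes of Status Outlier kept, statistics divided by their own central spread, and chromosome medians subtracted. Subtracting the neighbours' median and the differences between the knockout and the CHP-134 clones were added after the data were seen.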

Additional observations from a re-analysis of the deposited data

Results flagged for a closer look

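The test of the difference used a normal p and Benjamini-Hochberg adjustment over all genes. For CHP-134 clone 2 minus clone 1, whose contrasts share their wild type libraries, 4 of 28 members passed, where 20.5% of 12579 genes did. The differences were -0.59 for SCP2, -0.67 for EHHADH, 0.38 for PXMP2 and 0.24 for PEX19. With neighbours subtracted in each clone they came to -0.57, -0.13, 0.35 and 0.21, and of these 4 SCP2 alone passed. AGPS (0.22) and HACL1 (0.32) passed on the neighbour scale only. PEX19, the chaperone of membrane proteins, was called in neither clone, at 0.07 in clone 2 and -0.17 in clone 1 in the authors' deposited tables.

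For the RPE1 knockout minus CHP-134 clone 2, where 46.5% of 11160 genes passed, 10 of 28 members differed by the same test. They were higher in the knockout for PEX3 (0.43), PEX5 (0.28), SCP2 (0.56), FAR1 (0.41) and PXMP4 (0.32). They were lower in the knockout for PEX7 (-0.56), PEX26 (-0.22), ACOX3 (-0.52), PHYH (-0.34) and HACL1 (-0.28). ACOX3, the branched-chain oxidase, was called in both comparisons and in opposite directions. The share of all genes called in opposite directions in these comparisons was not computed, so this cannot be set beside it.

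For the RPE1 knockout minus CHP-134 clone 1, where 34.1% of 11194 genes passed, 10 of 29 members differed. They were higher in the knockout for PEX5 (0.33), PEX19 (0.18), CAT (0.43), FAR1 (0.20), PXMP2 (0.32) and PXMP4 (0.48). They were lower in the knockout for PEX7 (-0.39), PEX26 (-0.15), ACOX3 (-0.33) and EHHADH (-0.46). CAT, which encodes catalase, was called in both comparisons and in opposite directions, and the share of all genes that did so was not computed here either. The comparisons with the knockout set different cell lines against each other, and line and mutation cannot be told apart. PEX5 and PXMP2 are the members on chromosome 12, whose genes had a median log2 fold change of 0.51 in the knockout. With neighbours subtracted in each line, PEX5 turned to -0.18 against clone 2 and -0.11 against clone 1, and PXMP2 to -0.15 against clone 1. On that scale PEX3 (0.25, adjusted p = 0.112) and PEX26 (-0.05, adjusted p = 0.513) no longer passed against clone 2. Members that passed against clone 2 on that scale only were PXMP2 (-0.49), ABCD3 (-0.34), PEX14 (-0.33), EHHADH (-0.28), AGPS (-0.18) and SLC25A17 (0.18). Against clone 1, PEX5, PXMP2, PEX19 (0.14, adjusted p = 0.159) and PEX26 (-0.09, adjusted p = 0.196) no longer passed.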

How the results depend on the processing

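Counts of called members moved with the settings. The share of all genes under each of these settings was not computed, so the counts cannot be set beside it. With a change of at least 1.5-fold also required, 0 members were called in the knockout, 2 in clone 2 and 0 in clone 1, and with statistics divided by their own central spread 0, 1 (SCP2) and 0. An adjusted p under 0.01 left 2 members in clone 1, and one under 0.1 gave 11. Chromosome medians subtracted left 3 members in clone 1, and neighbour medians subtracted left 2 there and 8 in clone 2. In the knockout the count was 16 with neighbour medians subtracted. PEX5 in the knockout came to -0.14 and -0.09 with chromosome and neighbour medians subtracted, and stayed at 0.37 without passing when rescaled (adjusted p = 0.0608). PXMP2 in the knockout came to -0.29 under both subtractions, and HSD17B4 in clone 2 to 0.0445 relative to its neighbours.

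Of the differences, clone 2 minus clone 1 passed for 2 members at 0.01, 7 at 0.1, 2 when rescaled and 3 relative to neighbours. The knockout minus clone 1 passed for 4 members at 0.01, 0 when rescaled and 6 relative to neighbours. The knockout minus clone 2 passed for 0 when rescaled and 14 relative to neighbours. Of 32 calls of single members, PEX5 aside, in the knockout and both CHP-134 clones, 24 were still called in the same direction with chromosome medians subtracted, 19 with neighbour medians subtracted and 1 when rescaled. No paired analysis was possible because the files used here hold no value per library, and for the same reason replicates were not left out in turn. The PEX10, PXMP2, SCP2 and AMACR counts may include reads of overlapping genes.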

Other observations

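Among 56 other peroxisome genes, those with the smallest q in the knockout included the fission GTPase gene DNM1L at 0.36 (SE 0.025) and the mevalonate kinase gene MVK at 0.59 (SE 0.0549) in the authors' deposited table. Both lie on chromosome 12, whose usable genes had a median of 0.51 there. The others were NUDT12 at -1.14 (SE 0.0703), the isomerase gene ECI2 at -0.32 (SE 0.0223) and the antiviral adaptor gene MAVS at -0.23 (SE 0.0224) in the authors' deposited table. In clone 2 the genes with the smallest q included the coenzyme A diphosphatase gene NUDT19 at -4.57 (SE 0.319, mean count 58.2), FAR2 at -2.42 (SE 0.356, mean count 10.1), DNM1L at -0.28 (SE 0.0442) and the carnitine acetyltransferase gene CRAT at 0.44 (SE 0.0921) in the authors' deposited table. In clone 1 they were the epoxide hydrolase gene EPHX2 at 0.77 (SE 0.126), ECI2 at -0.35 (SE 0.0785), ZADH2 at 0.27 (SE 0.0674), HSDL2 at -0.25 (SE 0.0642) and DNM1L at -0.15 (SE 0.0401) in the authors' deposited table. NUDT19 and FAR2 thus changed by more in clone 2 than any of the 29 members did, though FAR2 lay close to the authors' limit of a mean count of 10. Both were usable in clone 1, where the lowest value of any usable gene of the 56 was -0.35. Falls of that size were thus not seen in clone 1. FAR2, which makes fatty alcohols as FAR1 does, lies on chromosome 12 and had a mean count of 1750 in the TetOn clone 4 table and 586 in the TetOn clone 5 table. Relative to the median ratio of all genes this was 2.69-fold, where the neighbours of FAR2 had a median of 2.03.

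With doxycycline, none of the 5 genes with the smallest q passed in TetOn clone 5, which were VAPA (0.08, q = 0.323), MFF (-0.09, q = 0.374), PRDX5 (-0.07, q = 0.555), IDH1 (-0.07, q = 0.677) and TYSND1 (-0.09, q = 0.70) in the authors' deposited table. In TetOn clone 4, VAPA passed and HSDL2 (-0.10, q = 0.342), NUDT19 (0.17, q = 0.377), PMVK (-0.11, q = 0.553) and CRAT (-0.09, q = 0.583) did not in the authors' deposited table.

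Of regulators of peroxisome genes and of PEX5 ubiquitination, 3 rose and 4 fell of 16 in the knockout, 3 rose and 5 fell of 18 in clone 2 and 2 fell of 18 in clone 1. These are 43.8%, 44.4% and 11.1% called, against 53.6%, 46.2% and 18.7% of all usable genes. PPARA, the receptor that drives peroxisome proliferation in rodent liver, fell in the knockout by 0.79 (SE 0.075, q = 3.4e-25) and rose in clone 2 by 0.62 (SE 0.0858, q = 1.33e-11) in the authors' deposited tables. In clone 1 all 18 regulators, PPARA among them, lay between -0.28 and 0.09, so a rise of that size was not seen there. SQSTM1, an adaptor for the removal of ubiquitinated peroxisomes, was the only regulator called with doxycycline, by -0.19 (SE 0.023, q = 4.46e-14) in TetOn clone 5 and -0.17 (SE 0.0458, q = 0.0158) in TetOn clone 4, and it rose in the knockout by 0.24 (SE 0.0338, q = 1.03e-11) in the authors' deposited tables. This is 6.25% of 16 usable regulators in each TetOn clone, against 2.97% of all usable genes in clone 5 and 1.95% in clone 4. In CHP-134 clone 1 no regulator was called up and 2 were called down, and all 18 lay between -0.28 and 0.09. A rise of SQSTM1 as large as that in the knockout was thus not seen there. The values of SQSTM1 itself in CHP-134 clone 1 and clone 2 are not given here. Whether SQSTM1 follows the dose of TRIM37 across these lines was not tested.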
